A study of Homo sapiens and Mus musculus with 56 samples.

Results

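The genes of cholesterol synthesis and of its control by sterol regulatory element-binding proteins (SREBPs) were followed through a study of MET inhibition in 5 human glioblastoma lines, U87M2, U118, SF295, DBM2 and U251M2. The module is a list of 29 genes chosen by name: the enzymes from acetyl-CoA to cholesterol, the SREBP genes and their regulators, and genes that bind, move or store cholesterol. It had 27 measured genes of 18417 on the human arrays and 27 of 19938 on the mouse arrays, where genes were matched by the same symbol and Cyp51 stands for CYP51A1. Human FDFT1 had no probe set that names it, and the probe set of HSD17B7 also names a pseudogene copy, so neither was used. On mouse arrays Acat2 and Soat1 had no probe set, and 25 genes were measured on both platforms.

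The human arrays (28) held cultured cells given V-4084 in DMSO, described in the labels as a selective inhibitor of the MET kinase, or DMSO alone as vehicle, for 7 days. The labels give a stock of 0.01 M and no final concentration. The mouse arrays (28) held tumours grown from these lines under the flank skin of nude mice, started from 500000 cells each. Those mice received V-4084 at 30 mg per kg, or its vehicle, Tween 80 at 0.05% and MC 400 at 0.5%, over the same time. Each line had 3 arrays per treatment, except SF295 in culture (2 with V-4084 and 2 with vehicle), SF295 tumours (3 with V-4084 and 2 with vehicle) and U251M2 tumours (2 with V-4084 and 3 with vehicle). The labels used here state neither the ages of the mice nor whether tumours were pooled. Nude mice lack a thymus and most T cells but keep macrophages, fibroblasts and vessels, so a tumour holds human tumour cells and mouse host cells. How far human RNA bound the mouse probes was not tested.

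As background, cells build cholesterol from acetyl-CoA by way of mevalonate, squalene and lanosterol, and a single transcriptional circuit sets the levels of nearly all of the enzymes. SREBP-2 (gene SREBF2) is held in the endoplasmic reticulum by SCAP and the INSIG proteins while sterols are plentiful. When sterols fall, SCAP carries it to the Golgi, where it is cut and released to the nucleus. It then turns on the genes of synthesis and uptake, together with INSIG1 and its own gene. SREBP-1 (SREBF1) drives fatty acid synthesis in the same way, and sterol-activated liver X receptors (LXRs) turn on efflux genes such as ABCA1. Glioblastoma cells are known to depend on a steady supply of cholesterol.

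Values are log2 probe-set intensities, and a difference is V-4084 minus vehicle on that scale. Levels carry the SD between arrays of a group, and differences carry limma's standard error (SE). A gene was called at an adjusted p under 0.05 (limma, Benjamini-Hochberg over all genes of a platform). Counts of members at an unadjusted p under 0.05 have no share of all genes beside them, because that share was not counted. The median value of an array lay between 6.63 and 6.87 (human) or 6.11 and 6.31 (mouse), and in all 56 cases the nearest array belonged to the same line. Of the 28 human arrays, 3 had a narrower spread of values than the others (SD 1.75 to 1.90, against 2.02 to 2.10): the V-4084 arrays SF295 repeat 2, U251M2 repeat 1 and DBM2 repeat 2. All 3 human arrays titled DBM2 with V-4084, the narrow repeat 2 among them, carry SF295 in other label fields. The mean level of 8 fibroblast genes on these 3 arrays was 7.29 to 7.44, against 7.33 to 7.44 in DBM2 vehicle. It was 8.58 to 8.79 in SF295 vehicle, so by this list the arrays were at the level of DBM2. They were placed by title, and values without the DBM2 line are given where they bear on a result. Glial markers were mixed on human arrays: mean levels of VIM (11.91), CD44 (10.19), NES (8.83), SOX2 (7.89) and GFAP (7.69) lay above the median gene (7.15), whereas OLIG2 (5.76), FABP7 (6.40) and S100B (6.78) lay below it. The labels do not say that repeats were separate cultures or animals, so each p-value measures the spread between arrays, which may be technical. Arrays have no read depth, and their number limits the precision. In RNA from whole cultures or tumours, fewer cells of a type and less RNA per cell cannot be told apart.

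The promoters of 8 members are shown: 6 of the 7 genes that fell with V-4084 in both U87M2 and U118 cells (ACAT2 was not in the table), and INSIG2 and TMEM97, which passed the test in no line. Each is the 250 bases before the most upstream listed start of the gene, 5′ to 3′ on the gene's strand, from RefSeq (GRCh38.p14). Capitals mark CCAAT, the box bound by NF-Y, a partner of SREBPs, in either orientation (ATTGG on the opposite strand), and the sterol regulatory element TCACNCCAC.
HMGCS1, chr5:43313413-43313662 (- strand): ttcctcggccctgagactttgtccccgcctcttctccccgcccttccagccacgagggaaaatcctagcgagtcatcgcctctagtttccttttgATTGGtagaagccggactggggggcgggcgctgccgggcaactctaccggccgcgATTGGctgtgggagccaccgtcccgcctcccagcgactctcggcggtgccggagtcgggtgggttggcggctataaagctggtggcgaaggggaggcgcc
MSMO1, chr4:165327419-165327668 (+ strand): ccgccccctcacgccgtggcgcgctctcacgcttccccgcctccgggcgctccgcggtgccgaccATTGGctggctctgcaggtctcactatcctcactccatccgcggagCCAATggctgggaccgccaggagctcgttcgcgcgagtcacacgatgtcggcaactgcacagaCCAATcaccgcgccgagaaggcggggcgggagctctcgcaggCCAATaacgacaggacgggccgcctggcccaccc
CYP51A1, chr7:92134478-92134727 (- strand): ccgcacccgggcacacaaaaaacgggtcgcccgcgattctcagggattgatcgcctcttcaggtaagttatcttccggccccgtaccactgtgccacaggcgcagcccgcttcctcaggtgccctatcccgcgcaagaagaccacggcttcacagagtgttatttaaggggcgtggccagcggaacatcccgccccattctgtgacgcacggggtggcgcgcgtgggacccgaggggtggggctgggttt
SREBF2, chr22:41832855-41833104 (+ strand): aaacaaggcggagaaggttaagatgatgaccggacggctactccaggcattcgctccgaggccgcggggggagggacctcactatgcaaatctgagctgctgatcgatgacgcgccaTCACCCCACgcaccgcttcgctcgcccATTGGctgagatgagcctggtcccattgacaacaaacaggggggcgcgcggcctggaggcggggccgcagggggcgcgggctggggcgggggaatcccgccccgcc
INSIG1, chr7:155297628-155297877 (+ strand): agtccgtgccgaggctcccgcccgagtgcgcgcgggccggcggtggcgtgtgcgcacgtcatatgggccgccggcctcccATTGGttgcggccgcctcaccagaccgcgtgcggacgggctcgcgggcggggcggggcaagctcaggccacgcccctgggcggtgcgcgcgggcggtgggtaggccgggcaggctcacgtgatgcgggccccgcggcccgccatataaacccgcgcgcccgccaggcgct
INSIG2, chr2:118088221-118088470 (+ strand): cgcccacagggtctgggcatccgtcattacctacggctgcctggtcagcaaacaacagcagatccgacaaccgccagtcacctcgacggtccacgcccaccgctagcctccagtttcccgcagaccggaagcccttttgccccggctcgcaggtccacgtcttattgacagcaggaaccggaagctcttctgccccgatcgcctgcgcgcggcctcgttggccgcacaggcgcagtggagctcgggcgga
STARD4, chr5:111512536-111512785 (- strand): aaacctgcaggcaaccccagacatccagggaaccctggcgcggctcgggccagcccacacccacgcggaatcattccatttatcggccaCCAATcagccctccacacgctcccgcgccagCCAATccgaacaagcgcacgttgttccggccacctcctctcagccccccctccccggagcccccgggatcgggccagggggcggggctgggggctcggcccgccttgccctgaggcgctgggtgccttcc
TMEM97, chr17:28318950-28319199 (+ strand): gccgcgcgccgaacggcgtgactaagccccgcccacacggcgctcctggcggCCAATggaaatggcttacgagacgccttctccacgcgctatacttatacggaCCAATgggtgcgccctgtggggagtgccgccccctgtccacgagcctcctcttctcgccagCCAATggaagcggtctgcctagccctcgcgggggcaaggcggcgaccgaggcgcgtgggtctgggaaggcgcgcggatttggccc
Of the 29 members, 26 had a promoter in the table. Both strands were searched. TCACNCCAC was found in 1 of the 26, SREBF2, 133 bases before the start (TCACCCCAC), against 0.868% of all 27305 promoters. CCAAT was found in 17 of the 26 (65.4%), against 33% of all promoters. GGGCGG, the core of the Sp1 box, was found in 23 of the 26 (88.5%), against 42.2% of all promoters. MSMO1 held 4 copies of CCAAT, HMGCS1 and STARD4 held 2 each, SREBF2 and INSIG1 held 1 each, and CYP51A1, which also fell in both lines, held none in this window. Of the genes that passed in no line, TMEM97 held 3 and INSIG2 none. By the call in U87M2 cells, CCAAT was found in 12 of 16 members that fell, 3 of 8 that did not pass and in NPC2, which rose, a difference that was not tested. A match describes the letters only. The search was for exact letters in 1 window per gene, so near matches and elements elsewhere were not counted. A promoter without a match may still hold such an element.

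In cultured cells, genes of the cholesterol module fell with V-4084 in U87M2 and, fewer of them, in U118. In U87M2, 18 of the 27 measured members fell and 1, NPC2, rose, where 9.62% of all genes were called lower and 5.37% higher. The median difference of the members was -0.80 in U87M2, against 0.02 for all genes. In U118, 7 members fell and 0 rose, where 0.646% of all genes were called lower and 0.755% in either direction. The median difference of the members there was -0.21, against 0.02 for all genes. These 7, all of which also fell in U87M2, were ACAT2, HMGCS1, CYP51A1, MSMO1, SREBF2, INSIG1 and STARD4. The U118 calls did not hold when some single arrays were left out. Leaving out vehicle repeat 2, vehicle repeat 3, V-4084 repeat 1 or V-4084 repeat 3 of that line left 0 called. No share of all genes stands beside these counts, so whether the loss was particular to the members was not tested.

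No member was called in SF295, DBM2 or U251M2 cells, where limma called 0% of all genes. The V-4084 group of each of these lines holds 1 of the 3 narrow arrays. Counts for these lines without those arrays are not given here. An unadjusted p under 0.05 was reached by 1 member in SF295, 5 in DBM2 and 1 in U251M2, a threshold at which all genes were not counted. The median difference of the members was -0.03 in SF295, -0.15 in DBM2 and 0.03 in U251M2, against -0.02, 0.05 and 0.03 for all genes. Leaving out V-4084 repeat 1 of SF295 left a single, narrow array in its group, so that fit is not read. Without V-4084 repeat 3 of DBM2, 4 members were called lower and 1 higher. That fit kept repeat 1 and the narrow repeat 2, and its count has no share of all genes beside it. Over the average of the 5 lines, 17 members fell and 0 rose, where 8.23% of all genes were called lower and 3.38% higher. Without the U87M2 line, 0 members were called in the average. That count has no share of all genes beside it, so it describes the members only. The count was 17 without the DBM2 line and 17 without the 3 narrow arrays, in both cases 16 lower and 1 higher.

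**Figure D1:**
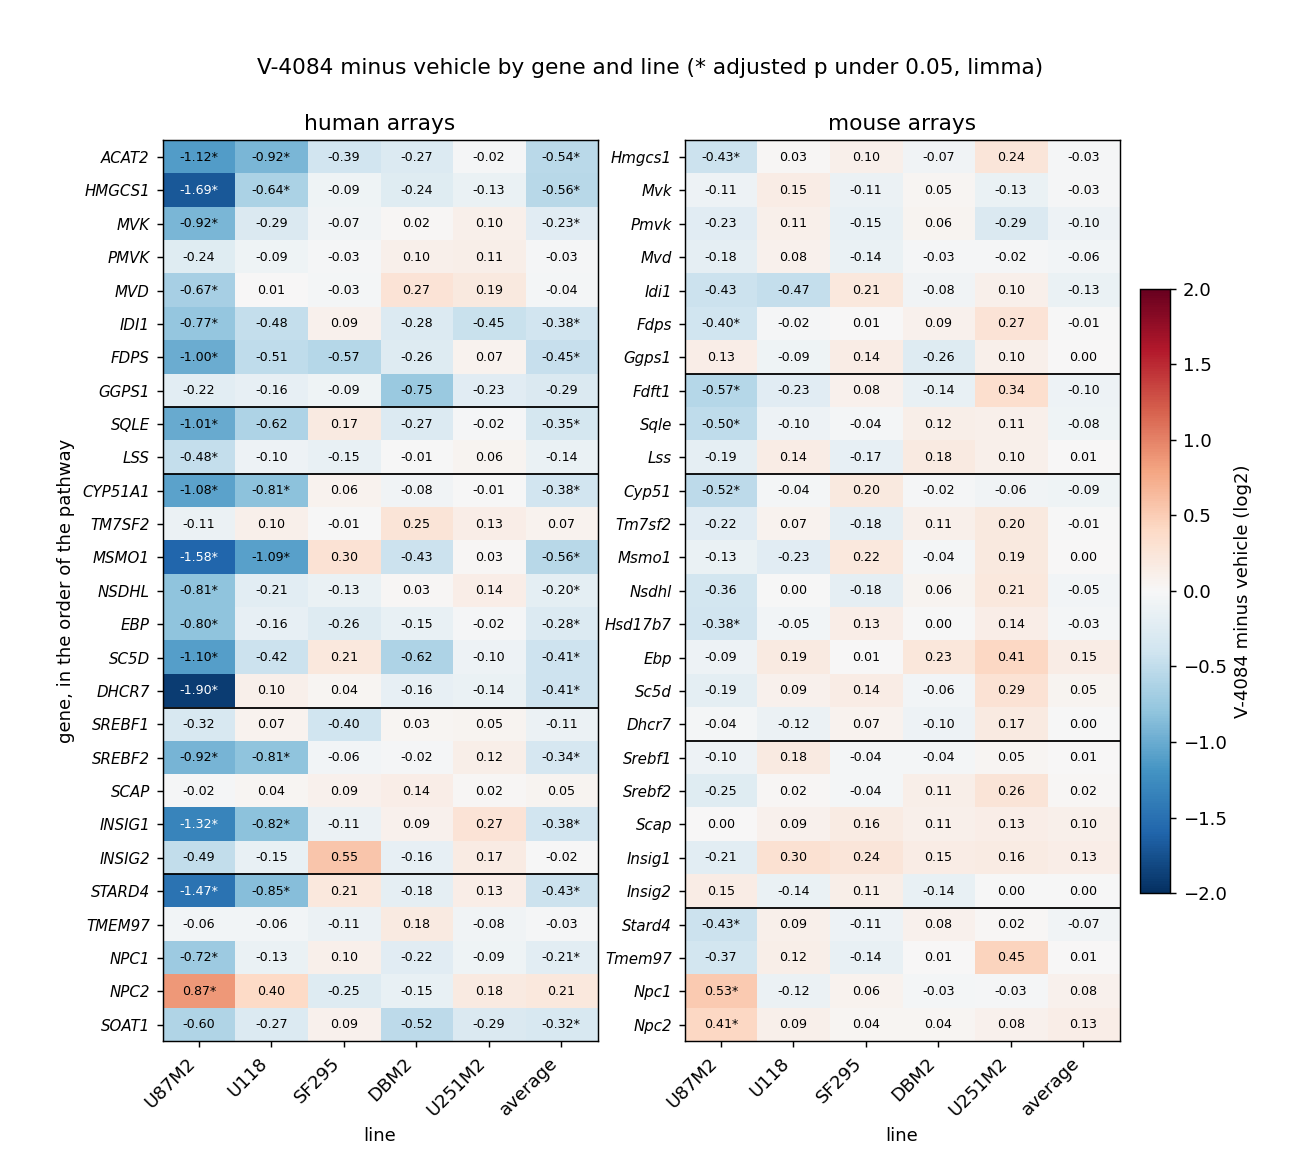
Difference, V-4084 minus vehicle (log2 intensity, colour and number), for each member in pathway order (rows) and each line and the average of 5 lines (columns), on human arrays at left and mouse arrays at right, with a star where the adjusted p was under 0.05. The blue column of U87M2 on human arrays holds 18 of the falls, and lines across the panels separate the role groups.

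The mevalonate and isoprenoid steps, from acetyl-CoA to farnesyl and geranylgeranyl diphosphate, had 8 members on human arrays. In U87M2, 6 of them fell (ACAT2, HMGCS1, MVK, MVD, IDI1 and FDPS), in U118 2 fell (ACAT2 and HMGCS1), and over the average 5 fell. PMVK and GGPS1 passed the test in no line.

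HMGCS1, which makes hydroxymethylglutaryl-CoA at the entry to the mevalonate pathway, had the smallest p of the group. In U87M2 its levels were 7.90, 8.09 and 8.19 with V-4084, against 9.59, 9.73 and 9.94 with vehicle. U118 cells had 7.90, 8.01 and 7.83 with V-4084, against 8.36, 8.76 and 8.53 with vehicle. In both lines every V-4084 array lay below every vehicle array, by -1.69 ± 0.12 (SE) in U87M2 (adjusted p = 1.58e-10, limma) and -0.64 ± 0.12 (SE) in U118 (adjusted p = 0.0122). SF295 cells had 8.65 and 8.64 with V-4084, against 8.79 and 8.69 with vehicle. DBM2 cells had 8.72, 8.48 and 8.69 with V-4084, against 8.91, 8.92 and 8.77 with vehicle. U251M2 cells had 7.96, 7.83 and 8.06 with V-4084, against 8.12, 7.92 and 8.19 with vehicle. The treatments did not overlap in SF295 and DBM2, but the differences of -0.09 and -0.24 did not pass the test, and the arrays of U251M2 overlapped. HMGCS1 was negative in all 5 lines and averaged -0.56 ± 0.06 (SE) (adjusted p = 2.97e-06).

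ACAT2, the cytosolic thiolase that joins acetyl-CoA units at the start of the pathway, also fell in U87M2 and U118. U87M2 cells had 6.39, 6.53 and 6.77 with V-4084, against 7.78, 7.46 and 7.83 with vehicle. In U118 the levels were 6.39, 6.45 and 6.48 with V-4084, against 7.04, 7.61 and 7.41 with vehicle. The V-4084 arrays lay below all vehicle arrays in both, with differences of -1.12 ± 0.16 (SE) (adjusted p = 1.24e-05, limma) and -0.92 ± 0.16 (SE) (adjusted p = 0.00573). In SF295 ACAT2 stood at 6.91 and 6.60 with V-4084, against 7.41 and 6.88 with vehicle. In DBM2 it stood at 8.12, 7.70 and 8.12 with V-4084, against 8.16, 8.35 and 8.24 with vehicle. In U251M2 it stood at 7.19, 7.21 and 7.33 with V-4084, against 7.49, 7.24 and 7.06 with vehicle. Of these lines, the treatments were separate in DBM2 and overlapped in SF295 and U251M2, and no difference passed the test. The ACAT2 average was -0.54 ± 0.07 (SE) (adjusted p = 0.000122).

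Of the other enzymes of this segment, MVK, mevalonate kinase, averaged 6.98 ± 0.05 with V-4084 and 7.89 ± 0.11 with vehicle (SD, n = 3 each) in U87M2, a difference of -0.92 ± 0.11 (SE) (adjusted p = 1.14e-06). FDPS, which makes farnesyl diphosphate, averaged 7.66 ± 0.25 with V-4084 and 8.66 ± 0.10 with vehicle (SD, n = 3 each) in that line, 2-fold lower (adjusted p = 0.000205). IDI1, the isopentenyl diphosphate isomerase, averaged 6.88 ± 0.25 with V-4084 and 7.65 ± 0.10 with vehicle (SD, n = 3 each), a difference of -0.77 ± 0.17 (SE) (adjusted p = 0.00206). All 3 also fell over the average of the lines, with differences of -0.23 for MVK, -0.45 for FDPS and -0.38 for IDI1. FDPS has near-identical pseudogene copies, and the probe set used names FDPS alone. MVD, the mevalonate diphosphate decarboxylase, fell in U87M2 (-0.67 ± 0.13 (SE), adjusted p = 0.000491) but its differences were 0.27 in DBM2 and 0.19 in U251M2, and its average of -0.04 did not pass. PMVK, phosphomevalonate kinase, differed by -0.24 in U87M2. GGPS1, which makes the geranylgeranyl group that anchors small GTPases, differed by -0.22 there and by -0.75 in DBM2 (adjusted p = 0.111), and its average was -0.29 ± 0.10 (SE) (adjusted p = 0.0539).

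Of the squalene and lanosterol steps, SQLE and LSS were measured on human arrays, and both fell in U87M2 while neither passed in U118. SQLE, the squalene epoxidase, is a rate-limiting oxygen-dependent step. U87M2 cells held SQLE at 8.77, 8.93 and 8.99 with V-4084, against 9.76, 9.93 and 10.03 with vehicle. U118 cells held it at 8.07, 8.13 and 7.42 with V-4084, against 8.17, 8.80 and 8.51 with vehicle. The arrays were separate in both lines, with differences of -1.01 ± 0.17 (SE) (adjusted p = 8.22e-05, limma) and -0.62 ± 0.17 (SE) (adjusted p = 0.0826). SQLE in SF295 was at 9.17 and 9.45 with V-4084, against 9.10 and 9.18 with vehicle. SQLE in DBM2 was at 8.65, 8.65 and 8.88 with V-4084, against 9.15, 9.04 and 8.80 with vehicle. SQLE in U251M2 was at 8.39, 8.61 and 8.54 with V-4084, against 8.49, 8.32 and 8.77 with vehicle. The treatments overlapped in all 3 of these lines. The SQLE average was -0.35 ± 0.08 (SE) (adjusted p = 0.00632).

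LSS closes squalene epoxide into lanosterol. In U87M2 it was at 8.36, 8.42 and 8.39 with V-4084, against 9.03, 8.86 and 8.72 with vehicle. In U118 it was at 8.16, 8.33 and 8.31 with V-4084, against 8.28, 8.47 and 8.36 with vehicle. Only the U87M2 arrays were separate among the 5 lines, with -0.48 ± 0.13 (SE) (adjusted p = 0.0137), against -0.10 in U118. SF295 had LSS at 8.74 and 8.05 with V-4084, against 8.46 and 8.63 with vehicle. DBM2 had LSS at 8.76, 8.55 and 8.62 with V-4084, against 8.54, 8.75 and 8.67 with vehicle. U251M2 had LSS at 8.23, 7.99 and 8.23 with V-4084, against 8.11, 8.17 and 8.00 with vehicle. In these 3 lines the treatments overlapped, and the average of -0.14 ± 0.06 (SE) did not pass the test (adjusted p = 0.133).

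The steps from lanosterol to cholesterol had 7 measured members on human arrays, of which 6 fell in U87M2 and over the average (CYP51A1, MSMO1, NSDHL, EBP, SC5D and DHCR7). In U118, 2 fell (CYP51A1 and MSMO1). TM7SF2, a sterol reductase of this segment, passed in no line.

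MSMO1, the methyl sterol oxidase that starts removal of the methyl groups of lanosterol, fell in U87M2 and U118. MSMO1 in U87M2 stood at 8.05, 8.39 and 8.52 with V-4084, against 9.88, 9.92 and 9.91 with vehicle. MSMO1 in U118 stood at 7.38, 7.42 and 7.28 with V-4084, against 8.11, 8.92 and 8.33 with vehicle. The vehicle arrays of U87M2 lay within a narrow range, and all V-4084 arrays of both lines were lower, by -1.58 ± 0.21 (SE) (adjusted p = 4.91e-06, limma) and -1.09 ± 0.21 (SE) (adjusted p = 0.0123). SF295 cells held MSMO1 at 8.75 and 9.16 with V-4084, against 8.54 and 8.78 with vehicle. DBM2 cells held it at 9.17, 8.47 and 9.53 with V-4084, against 9.72, 9.39 and 9.35 with vehicle. U251M2 cells held it at 7.69, 7.59 and 7.62 with V-4084, against 7.70, 7.22 and 7.88 with vehicle. The treatments overlapped in these 3 lines, and the difference in SF295 was positive (0.30) without passing the test. The MSMO1 average was -0.56 ± 0.10 (SE) (adjusted p = 0.00109).

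DHCR7, the reductase of the last step to cholesterol, had the largest difference of the 27 members in U87M2 and none that passed in another line. Its levels in U87M2 were 7.12, 7.76 and 7.77 with V-4084, against 9.65, 9.30 and 9.40 with vehicle. Its levels in U118 were 6.06, 5.90 and 6.16 with V-4084, against 5.96, 5.87 and 5.98 with vehicle. The U87M2 arrays were separate, with -1.90 ± 0.20 (SE) (adjusted p = 1.56e-07, limma), which is 3.73-fold lower, whereas U118 arrays overlapped at a low level on both treatments. DHCR7 in SF295 was at 7.92 and 7.91 with V-4084, against 7.79 and 7.96 with vehicle. DHCR7 in DBM2 was at 9.93, 9.04 and 9.74 with V-4084, against 9.61, 9.85 and 9.73 with vehicle. DHCR7 in U251M2 was at 7.77, 8.38 and 8.71 with V-4084, against 8.55, 8.41 and 8.32 with vehicle. Those 3 lines overlapped between treatments, with 1 low V-4084 array each in DBM2 and U251M2. The low arrays are DBM2 repeat 2 and U251M2 repeat 1, both of narrow range. The DHCR7 average was -0.41 ± 0.09 (SE) (adjusted p = 0.00776).

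CYP51A1, the lanosterol demethylase, averaged 8.76 ± 0.20 with V-4084 and 9.84 ± 0.32 with vehicle (SD, n = 3 each) in U87M2 and 8.65 ± 0.37 with V-4084 and 9.47 ± 0.33 with vehicle (SD, n = 3 each) in U118. Its differences were -1.08 ± 0.19 (SE) (adjusted p = 0.000227) and -0.81 ± 0.19 (SE) (adjusted p = 0.0422). SC5D, a sterol desaturase, averaged 7.13 ± 0.26 with V-4084 and 8.23 ± 0.24 with vehicle (SD, n = 3 each) in U87M2, a difference of -1.10 ± 0.23 (SE) (adjusted p = 0.00103). Its difference in DBM2 was -0.62 and did not pass (adjusted p = 0.119). NSDHL, which works in the same demethylation complex as MSMO1, fell by 0.81 in U87M2 (adjusted p = 2.84e-06) and was at -0.21 in U118. EBP, the sterol isomerase, fell by 0.80 in U87M2 (adjusted p = 0.00297) and was negative in all 5 lines. TM7SF2 ran between -0.11 in U87M2 and 0.25 in DBM2.

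Among the 5 genes of SREBP control, SREBF2 and INSIG1 fell in U87M2, in U118 and over the average, while SREBF1, SCAP and INSIG2 passed in no line. SREBF2 encodes SREBP-2. In U87M2 SREBF2 was at 8.03, 8.50 and 8.36 with V-4084, against 9.45, 9.15 and 9.06 with vehicle. In U118 it was at 7.74, 7.73 and 7.79 with V-4084, against 8.33, 8.78 and 8.59 with vehicle. Every V-4084 array of these lines was below every vehicle array, with differences of -0.92 ± 0.16 (SE) (adjusted p = 0.000123, limma) and -0.81 ± 0.16 (SE) (adjusted p = 0.0126). SREBF2 levels in SF295 were 8.72 and 8.30 with V-4084, against 8.51 and 8.63 with vehicle. SREBF2 levels in DBM2 were 8.81, 8.40 and 8.78 with V-4084, against 8.61, 8.83 and 8.63 with vehicle. SREBF2 levels in U251M2 were 8.18, 8.19 and 8.57 with V-4084, against 8.38, 8.24 and 7.96 with vehicle. The treatments overlapped in these 3 lines, with differences between -0.06 and 0.12. The SREBF2 average was -0.34 ± 0.07 (SE) (adjusted p = 0.00524).

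INSIG1, which retains SCAP in the endoplasmic reticulum and is itself an SREBP target in many cell types, fell in U87M2 and U118. INSIG1 in U87M2 stood at 8.04, 8.34 and 8.39 with V-4084, against 9.52, 9.66 and 9.56 with vehicle. INSIG1 in U118 stood at 7.93, 7.85 and 7.62 with V-4084, against 8.32, 8.93 and 8.61 with vehicle. Both lines had separate arrays, with -1.32 ± 0.16 (SE) (adjusted p = 1.35e-06, limma) and -0.82 ± 0.16 (SE) (adjusted p = 0.0136). SF295 cells had INSIG1 at 8.80 and 8.17 with V-4084, against 8.48 and 8.72 with vehicle. DBM2 cells had INSIG1 at 8.47, 8.76 and 8.66 with V-4084, against 8.68, 8.56 and 8.38 with vehicle. U251M2 cells had INSIG1 at 8.09, 7.59 and 7.75 with V-4084, against 7.61, 7.54 and 7.48 with vehicle. These arrays overlapped, and the difference in U251M2 was positive (0.27) without passing. The INSIG1 average was -0.38 ± 0.08 (SE) (adjusted p = 0.0028).

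SREBF1 did not pass in any line. Its U87M2 levels were 7.21, 6.97 and 6.95 with V-4084, against 7.47, 7.35 and 7.27 with vehicle. Its U118 levels were 7.07, 7.13 and 7.26 with V-4084, against 6.93, 7.24 and 7.07 with vehicle. The U87M2 arrays were separate but by a difference of -0.32 ± 0.18 (SE) (adjusted p = 0.265, limma). In SF295 SREBF1 was at 7.42 and 6.25 with V-4084, against 7.16 and 7.31 with vehicle. In DBM2 SREBF1 was at 7.89, 7.72 and 7.70 with V-4084, against 7.61, 7.72 and 7.88 with vehicle. In U251M2 SREBF1 was at 7.47, 7.42 and 7.74 with V-4084, against 7.53, 7.56 and 7.39 with vehicle. The V-4084 arrays of SF295 lay on either side of its vehicle arrays, and the lower one is repeat 2, an array of narrow range. SCAP, the escort of SREBPs, differed by -0.02 in U87M2 and 0.04 in U118. INSIG2, the INSIG protein whose gene is not a classical SREBP target, differed by -0.49 ± 0.23 (SE) in U87M2 (adjusted p = 0.165), -0.15 in U118 and 0.55 in SF295 (adjusted p = 0.589).

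**Figure D2:**
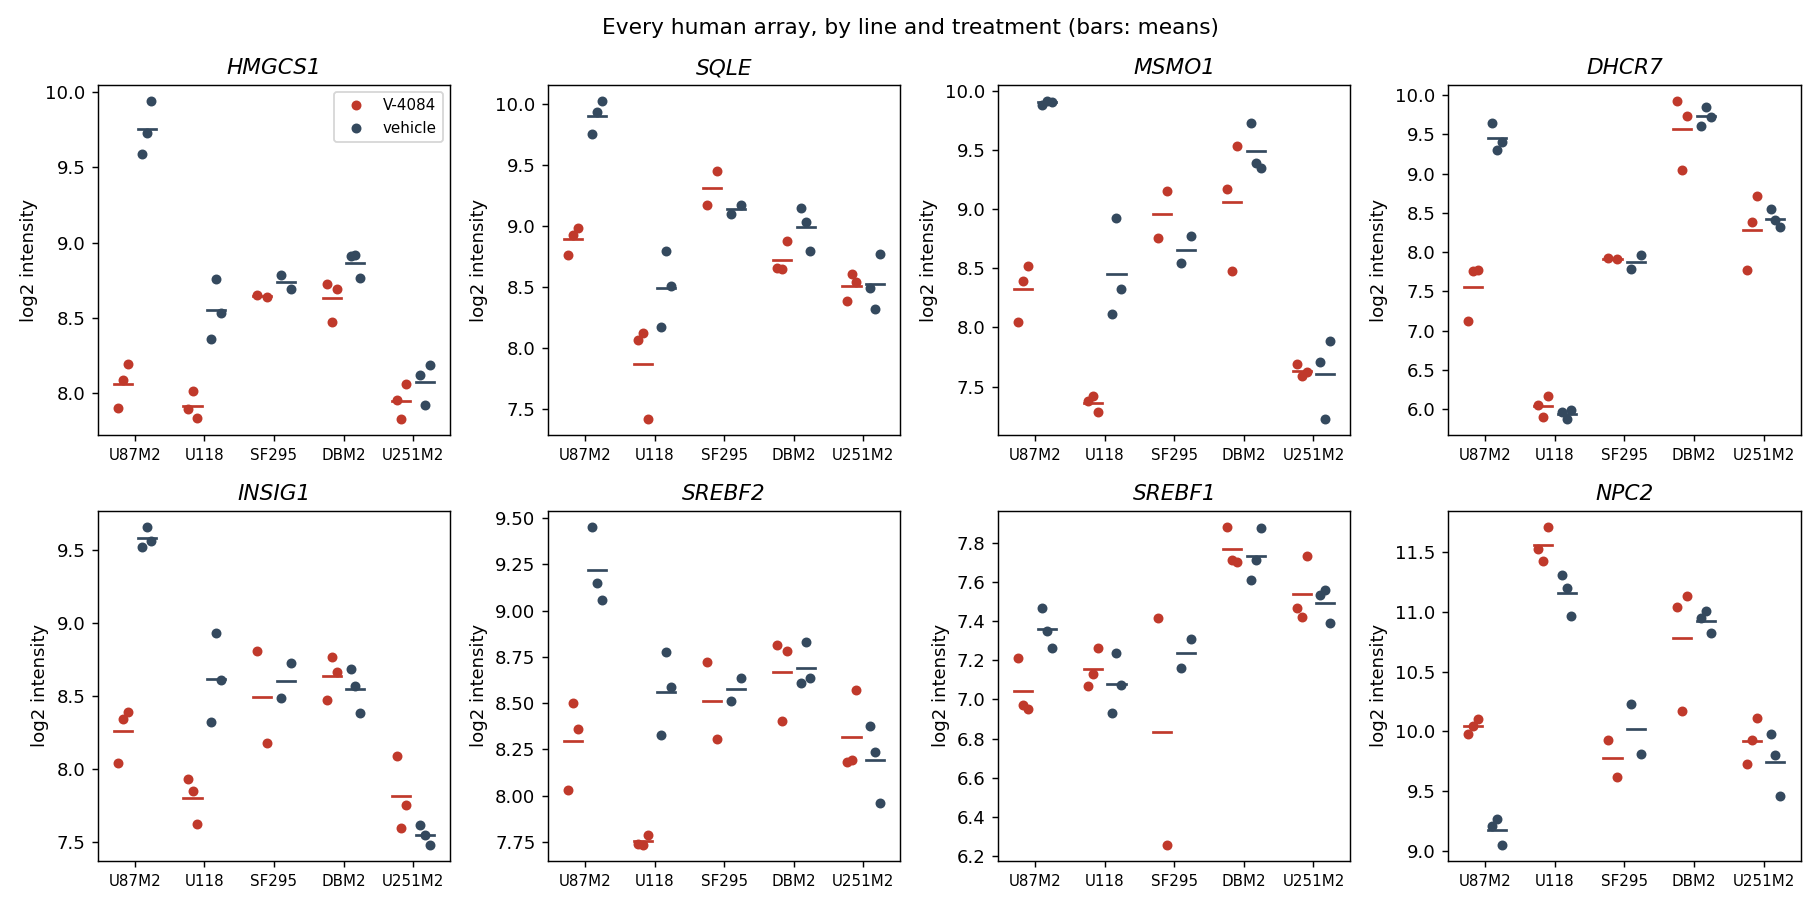
Log2 intensity of 8 members on every human array, by line, with V-4084 (red) left of vehicle (blue) and bars at the means; each panel has its own axis, which does not start at 0. In U87M2 the V-4084 arrays lie below the vehicle arrays for HMGCS1, SQLE, MSMO1, DHCR7, INSIG1, SREBF2 and SREBF1 and above them for NPC2, and in U118 they lie below for HMGCS1, SQLE, MSMO1, INSIG1 and SREBF2.

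The genes that bind, move or store cholesterol went in both directions. Of 5, STARD4 and NPC1 fell and NPC2 rose in U87M2, STARD4 fell in U118, and STARD4, NPC1 and SOAT1 fell over the average. STARD4 is a soluble cholesterol carrier and an SREBP target. In U87M2 STARD4 was at 6.86, 7.11 and 7.33 with V-4084, against 8.48, 8.53 and 8.72 with vehicle. In U118 STARD4 was at 5.70, 5.69 and 5.38 with V-4084, against 6.07, 6.80 and 6.44 with vehicle. The arrays did not overlap in either line, with -1.47 ± 0.19 (SE) (adjusted p = 2.83e-06, limma) and -0.85 ± 0.19 (SE) (adjusted p = 0.0298). STARD4 levels in SF295 were 7.41 and 7.53 with V-4084, against 7.10 and 7.42 with vehicle. STARD4 levels in DBM2 were 8.33, 8.21 and 8.54 with V-4084, against 8.80, 8.56 and 8.25 with vehicle. STARD4 levels in U251M2 were 7.26, 6.53 and 6.71 with V-4084, against 6.75, 6.45 and 6.92 with vehicle. These 3 lines overlapped between treatments. The STARD4 average was -0.43 ± 0.09 (SE) (adjusted p = 0.00334).

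NPC1, the membrane protein that exports cholesterol from lysosomes, and NPC2, the soluble protein that hands cholesterol to it, moved in opposite directions in U87M2. NPC1 in U87M2 was at 8.73, 8.84 and 8.85 with V-4084, against 9.39, 9.58 and 9.63 with vehicle. NPC1 in U118 was at 9.18, 9.09 and 8.79 with V-4084, against 9.05, 9.25 and 9.14 with vehicle. The U87M2 arrays were separate (-0.72 ± 0.13 (SE), adjusted p = 0.000302, limma) and the U118 arrays overlapped. NPC1 in SF295 was at 9.64 and 9.30 with V-4084, against 9.24 and 9.49 with vehicle. NPC1 in DBM2 was at 9.19, 8.77 and 9.34 with V-4084, against 9.26, 9.43 and 9.28 with vehicle. NPC1 in U251M2 was at 8.04, 8.25 and 8.20 with V-4084, against 8.28, 8.22 and 8.25 with vehicle. All 3 overlapped, and the NPC1 average was -0.21 ± 0.06 (SE) (adjusted p = 0.0304). NPC2 levels in U87M2 were 9.98, 10.04 and 10.11 with V-4084, against 9.20, 9.26 and 9.05 with vehicle. All V-4084 arrays were above all vehicle arrays there, by 0.87 ± 0.18 (SE) (adjusted p = 0.00134). In U118 the NPC2 difference was 0.40, with separate arrays, and did not pass (adjusted p = 0.459). SOAT1, which esterifies cholesterol for storage, differed by -0.60 ± 0.22 (SE) in U87M2 (adjusted p = 0.0621) and -0.52 in DBM2, and fell over the average by 0.32 (adjusted p = 0.0434). TMEM97, the sigma-2 receptor that binds NPC1, differed by -0.06 in U87M2 and passed in no line.

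Counting arrays rather than calls, all V-4084 arrays lay below all vehicle arrays for 23 of 27 members in U87M2 (21.6% of all genes), 16 in U118 (13.5%), 2 in SF295 (17%), 4 in DBM2 (7.37%) and 0 in U251M2 (6.99%). All V-4084 arrays lay above all vehicle arrays for 1 member in each of U87M2 (18% of all genes), U118 (13.7%), DBM2 (9.88%) and U251M2 (6.27%), and for 2 in SF295 (12.3%), which has 2 arrays per treatment. The effect itself differed between the 5 lines for 13 of 27 members by limma's F test, where 5.53% of all genes were called. HMGCS1 had the smallest adjusted p of this test (1.33e-06), followed by DHCR7 (0.000109) and INSIG1 (0.000109). Without U87M2, 0 members differed between the remaining 4 lines, a count with no share of all genes beside it.

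With vehicle alone, the lines started from different levels: 25 of 27 members differed between lines (F test, limma), where 58.4% of all genes did, and GGPS1 and SC5D did not pass. U87M2 had the highest vehicle mean for 18 members, and for 12 of these every U87M2 vehicle array lay above every other vehicle array, among them HMGCS1, SQLE, MSMO1, SREBF2 and INSIG1. U251M2 had the lowest vehicle mean for 13 members and DBM2 the highest for 5. Of the 18 members that fell in U87M2, the V-4084 mean lay within the vehicle means of the other 4 lines for 14, above them for MVD, and below them for ACAT2, HMGCS1 and SC5D. The shares of all genes with such rankings, or with such separate vehicle arrays, were not counted, so these counts describe the members only. The same 3 vehicle arrays of U87M2 enter this ranking and the V-4084 difference, so the values are given as a description.

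**Figure D3:**
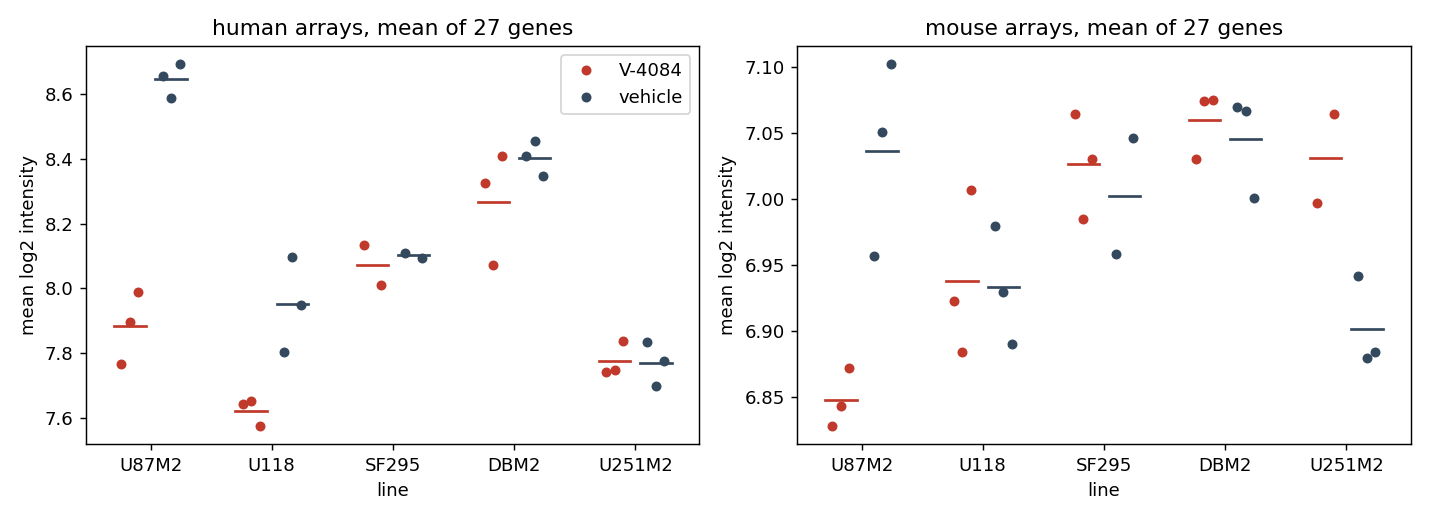
Mean log2 intensity over the 27 measured members on every array, by line, with V-4084 (red) left of vehicle (blue) and bars at the group means, on human arrays at left and mouse arrays at right; the axes differ and do not start at 0. On human arrays U87M2 lay between 7.77 and 7.99 with V-4084, against 8.59 to 8.69 with vehicle, and U118 between 7.57 and 7.65 with V-4084, against 7.80 to 8.10 with vehicle.

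Other genes moved in the same cultures. A list of 16 genes of the G2/M phase of the cell cycle had 13 falls in U87M2, 8 in U118 and 15 over the average, with 0 rises, where 9.62%, 0.646% and 8.23% of all genes were called lower. Their mean level was 8.13 to 8.40 with V-4084 and 8.96 to 9.22 with vehicle in U87M2, and 7.73 to 8.20 with V-4084 and 8.62 to 8.90 with vehicle in U118. Of 8 fibroblast genes, such as collagens, all 8 rose in U87M2 (mean level 10.30 to 10.38 with V-4084 and 9.03 to 9.48 with vehicle) and 0 in U118, where 5.37% and 0.109% of all genes were called higher. The part of either in the fall of the cholesterol genes was not tested.

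On the mouse arrays of tumours, members were called in U87M2 alone of the 5 lines. There 7 of 27 members fell (Hmgcs1, Fdps, Fdft1, Sqle, Cyp51, Hsd17b7 and Stard4) and 2 rose (Npc1 and Npc2), where 1.22% of all mouse genes were called lower, 2.49% higher and 3.72% in all. The median difference was -0.21 for the members, against 0.0007 for all genes. The count fell when some single arrays were left out. It was 5 without vehicle repeat 1, 1 without vehicle repeat 3, 2 without V-4084 repeat 1 and 4 without V-4084 repeat 2. No share of all genes stands beside these counts, so whether the drop was particular to the members was not tested. Over the average of the lines limma called 0 members, where 0.0702% of all genes were called (0.0201% lower and 0.0502% higher), and 3 reached an unadjusted p under 0.05, all higher. In U118, SF295, DBM2 and U251M2 tumours 0 were called, where at most 0.0401% of all genes were, and an unadjusted p under 0.05 was reached by 2 members in U118, 0 in SF295, 1 in DBM2 and 8 in U251M2. The 8 in U251M2 comprised 7 higher and 1 lower, and the share of all genes at that threshold was not counted.

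In U87M2 tumours Hmgcs1 was at 6.84, 6.92 and 6.88 with V-4084, against 7.09, 7.34 and 7.50 with vehicle. Sqle was at 6.43, 6.37 and 6.75 with V-4084, against 6.76, 7.08 and 7.20 with vehicle. Stard4 was at 6.24, 6.05 and 6.47 with V-4084, against 6.65, 6.54 and 6.86 with vehicle. For these 3 genes every V-4084 array lay below every vehicle array, with differences of -0.43 ± 0.10 (SE) (adjusted p = 0.0106, limma), -0.50 ± 0.11 (SE) (adjusted p = 0.00734) and -0.43 ± 0.11 (SE) (adjusted p = 0.0295). Npc1 was at 9.09, 8.88 and 8.63 with V-4084, against 8.09, 8.49 and 8.44 with vehicle. All V-4084 arrays were above all vehicle arrays, a difference of 0.53 ± 0.11 (SE) (adjusted p = 0.00792). Npc2 was higher by 0.41 ± 0.10 (SE) (adjusted p = 0.0227). Fdft1, the squalene synthase not measured on human arrays, averaged 6.51 ± 0.08 with V-4084 and 7.08 ± 0.22 with vehicle (SD, n = 3 each), a difference of -0.57 ± 0.13 (SE) (adjusted p = 0.00906). Hsd17b7, a sterol ketone reductase, averaged 6.19 ± 0.15 with V-4084 and 6.57 ± 0.15 with vehicle (SD, n = 3 each), a difference of -0.38 ± 0.10 (SE) (adjusted p = 0.0216). Fdps differed by -0.40 (adjusted p = 0.0138) and Cyp51 by -0.52 (adjusted p = 0.0193).

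The SREBP control genes did not pass in any tumour line (0 of 5). Srebf2 in U87M2 tumours was at 7.62, 7.73 and 7.62 with V-4084, against 7.94, 7.94 and 7.84 with vehicle. Insig1 was at 7.13, 7.40 and 7.58 with V-4084, against 7.55, 7.58 and 7.61 with vehicle. Srebf1 was at 6.73, 6.83 and 6.78 with V-4084, against 6.96, 6.84 and 6.85 with vehicle. The arrays of Srebf2 and Srebf1 were separate and those of Insig1 overlapped, with differences of -0.25, -0.10 and -0.21 (adjusted p = 0.244, 0.616 and 0.584, limma). The enzyme genes Msmo1, Dhcr7 and Lss, whose human counterparts fell in U87M2 cells, did not pass on mouse arrays of the tumours. Msmo1 was at 5.73, 6.15 and 6.13 with V-4084, against 5.92, 6.15 and 6.35 with vehicle. Dhcr7 was at 6.28, 6.42 and 6.41 with V-4084, against 6.57, 6.41 and 6.24 with vehicle. Lss was at 6.13, 6.18 and 6.16 with V-4084, against 6.42, 6.29 and 6.32 with vehicle. Msmo1 and Dhcr7 overlapped between treatments, and Lss was separate by -0.19 (adjusted p = 0.33).

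The remaining mouse members, Mvk, Pmvk, Mvd, Idi1, Ggps1, Tm7sf2, Nsdhl, Ebp, Sc5d, Scap, Insig2 and Tmem97, ran in U87M2 tumours from -0.43 (Idi1) to 0.15 (Insig2), and none passed. Tmem97 came closest (-0.37 ± 0.11 (SE), adjusted p = 0.0585). All V-4084 arrays lay below all vehicle arrays for 14 of 27 members in U87M2 tumours (8.4% of all genes), 2 in U118 (6.61%), 4 in SF295 (9.92%), 0 in DBM2 (2.41%) and 2 in U251M2 (22%). They lay above for 2 members in U87M2 (10.1% of all genes), 4 in U118 (7.6%), 2 in SF295 (5.71%), 3 in DBM2 (5.03%) and 9 in U251M2 (11.1%). No member's effect differed between lines on mouse arrays by the F test, where 0.341% of all genes did, and 15 reached an unadjusted p under 0.05. With vehicle, 13 of 27 differed between lines, where 54.3% of all genes did. In U87M2 tumours 11 of 15 mouse G2/M genes fell (1.22% of all genes), with a mean level of 6.52 to 6.60 with V-4084 and 6.96 to 7.27 with vehicle. Skeletal muscle genes had a mean level of 6.56 to 6.82 with V-4084 and 6.82 to 7.89 with vehicle, with 0 of 9 called, and macrophage genes 8.08 to 8.57 with V-4084 and 8.12 to 8.19 with vehicle, with 2 of 8 called higher (2.49% of all genes). Fibroblast genes had a mean level of 8.92 to 9.54 with V-4084 and 8.29 to 9.42 with vehicle, with all 8 differences positive, 0 called and 4 at an unadjusted p under 0.05. Adipocyte genes had 6.59 to 7.46 with V-4084 and 6.31 to 7.02 with vehicle, with all 6 positive, 0 called and 4 at an unadjusted p under 0.05. Glial genes had 6.84 to 6.96 with V-4084 and 7.08 to 7.09 with vehicle, separate between treatments, with 7 of 8 negative and 1, Nes, called lower. The part of these cell types in the members' differences was not tested.

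Set side by side in U87M2, 5 genes fell on both platforms (HMGCS1, FDPS, SQLE, CYP51A1 and STARD4) and NPC2 rose on both. NPC1 fell on human arrays of cultured cells, and Npc1 rose on mouse arrays of tumours. The difference was negative on both for 20 of 25 members, and its size was larger on human arrays for 23. The mouse arrays, with probes for mouse RNA, held whole tumours with mouse host cells. The 2 platforms therefore need not read the same cells, and the dosing differed. Differences on the 2 platforms come from different probes and were not fitted together, so their directions and sizes are a description.

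**Figure D4:**
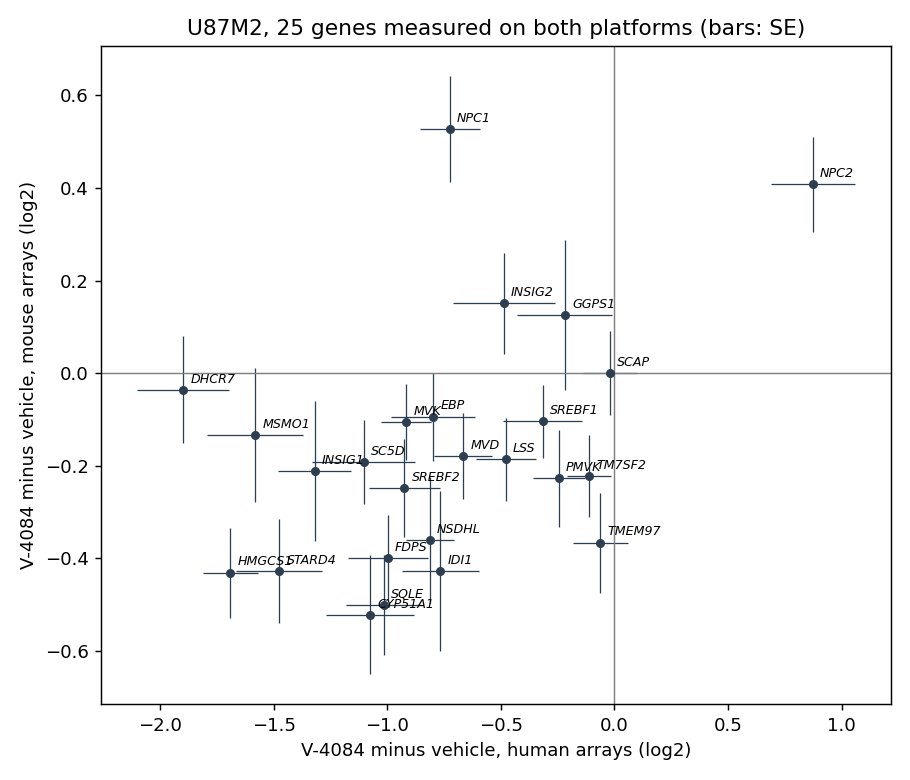
Difference in U87M2, V-4084 minus vehicle (log2), on human arrays of cultured cells (horizontal axis) and mouse arrays of tumours (vertical axis), for the 25 members measured on both; bars are limma standard errors and the axes have different ranges. Most genes lie at lower left, NPC2 at upper right and NPC1 at upper left.

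Neighbouring pathways were counted on the same human arrays. Of 13 genes of fatty acid synthesis, 7 fell over the average, 10 in U87M2 and 2 in U118, and 0 rose, where 8.23%, 9.62% and 0.646% of all genes were called lower. SCD, the stearoyl-CoA desaturase, was at 8.76, 8.97 and 9.02 with V-4084, against 10.65, 10.94 and 10.70 with vehicle in U87M2. SCD in U118 was at 5.92, 5.64 and 5.66 with V-4084, against 6.35, 8.43 and 6.87 with vehicle. Both sets of arrays were separate, with -1.84 ± 0.29 (SE) (adjusted p = 5.69e-05, limma) and -1.48 ± 0.29 (SE) (adjusted p = 0.0147), and the SCD average was -0.79. The desaturases FADS2 and FADS1 averaged -0.52 and -0.48 over the lines and differed by -1.82 (adjusted p = 2.77e-08) and -1.27 (adjusted p = 1.07e-07) in U87M2. FADS1 was the other gene of this list that fell in U118 (-0.79, adjusted p = 0.00499). Both U118 calls were lost without vehicle repeat 2, vehicle repeat 3, V-4084 repeat 1 or V-4084 repeat 3 of that line, and without vehicle repeat 2, the highest array, the SCD difference was -0.87.

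Sterol efflux and LXR targets went partly the other way: of 9, ABCA1, MYLIP and CYP27A1 rose (3) and NCEH1 fell (1) over the average, where 3.38% of all genes were called higher and 8.23% lower, so that 1 fall among 9 is near the share of all genes. ABCA1, the pump that loads cholesterol onto lipoproteins, was at 8.56, 7.94 and 8.17 with V-4084, against 7.04, 7.64 and 7.01 with vehicle in U87M2. All V-4084 arrays were higher, by 1.00 ± 0.17 (SE) (adjusted p = 0.000113, limma). MYLIP, a ubiquitin ligase induced by LXRs that degrades lipoprotein receptors, rose by 0.57 ± 0.12 (SE) in U87M2 (adjusted p = 0.00114). The averages were 0.28 for ABCA1 and 0.27 for MYLIP. NCEH1, a cholesteryl ester hydrolase, fell by 1.47 in U87M2 (adjusted p = 3.29e-05) and by 0.48 over the average. In U87M2 tumours 4 of 9 rose (Abca1, Mylip, Cyp27a1 and Nceh1) and 1, Ch25h, fell, where 2.49% of all mouse genes were called higher and 1.22% lower. Abca1 there was at 10.15, 9.87 and 9.73 with V-4084, against 8.49, 8.82 and 8.50 with vehicle. The V-4084 arrays were all higher, by 1.31 ± 0.11 (SE) (adjusted p = 3.21e-07). NCEH1 fell in cultured cells on human arrays, whereas Nceh1 was higher on mouse arrays of tumours by 0.63 (adjusted p = 0.0384, limma).

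**Figure D5:**
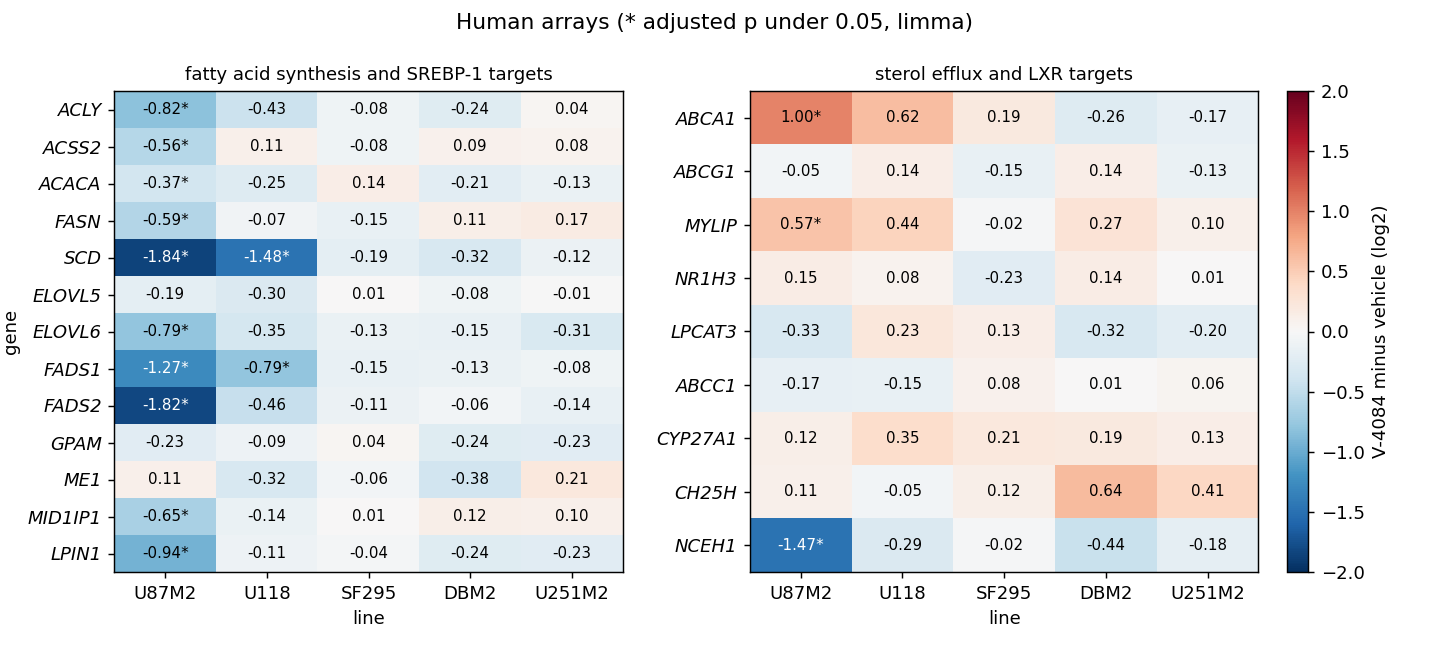
Difference, V-4084 minus vehicle (log2 intensity, colour and number), on human arrays for the 13 measured fatty acid synthesis genes (left) and the 9 measured sterol efflux genes (right), by line, with a star where the adjusted p was under 0.05. The falls lie in the U87M2 column and, for SCD and FADS1, in U118; ABCA1 and MYLIP rose in U87M2.

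The remaining lists had few calls. Of 10 genes of SREBP cleavage and INSIG turnover, 2 fell over the average, where 8.23% of all genes did. They were ERLIN1 (-0.30, adjusted p = 0.0271, limma) and ERLIN2 (-0.24, adjusted p = 0.0129). In U87M2 cells 1 of the 10 fell, ERLIN2 (-0.39 ± 0.13 (SE), adjusted p = 0.0323), and 1 rose, MBTPS1 (0.56 ± 0.15 (SE), adjusted p = 0.00828), the site-1 protease that makes the first cut in SREBPs. Of all genes, 9.62% were called lower there and 5.37% higher, so counts of 1 are near these shares. Of 11 intracellular sterol carriers, 1 fell over the average, OSBPL11 (-0.37, adjusted p = 0.00386), and 1 in U87M2, GRAMD1B (-0.43, adjusted p = 0.00971), a count near the share of all genes called lower in each (8.23% and 9.62%). Of 9 genes that use isoprenoids for dolichol, ubiquinone and protein prenylation, limma called 0 over the average, and 3 reached an unadjusted p under 0.05. In U87M2 1 of these 9 fell, PDSS1 (-0.47, adjusted p = 0.013), which makes the side chain of ubiquinone, again near the share of all genes. Single arrays ended some of these calls. Without vehicle repeat 3 of U87M2, ERLIN1 (average), ERLIN2, PDSS1 and GRAMD1B (U87M2) did not pass. Without vehicle repeat 1, MBTPS1 and ERLIN2 did not. Leaving out V-4084 repeat 1 or 2 ended the calls of ERLIN2 and PDSS1, leaving out V-4084 repeat 3 that of ERLIN2, and leaving out SF295 vehicle repeat 2 or U118 V-4084 repeat 3 that of ERLIN1.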

How the data were processed

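Gene expression was measured on 28 human and 28 mouse Affymetrix gene arrays, from 200 ng of RNA each. The authors made log2 probe-set intensities with RMA and Partek, per the submitters' processing notes; their versions are not known here. They were used as deposited. Only probe sets that name 1 gene were used, so those with several names or none were dropped (human 1754 and 12083 of 33297, mouse 1621 and 12146 of 35556), and the brightest probe set on average stood for its gene.

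On each platform limma 3.58.1 (R 4.3.3) fitted 10 group means (18 residual degrees of freedom, eBayes without trend) and tested V-4084 minus vehicle in each line, their average with equal weights, and F tests between lines of the effects and of the vehicle levels. P-values were two-sided and Benjamini-Hochberg adjusted over all genes. The fit was tested on simulated data. The platforms were fitted separately.

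Members, lists and tests were chosen with earlier results of these data known. Per-array values are given for HMGCS1, INSIG1, SREBF1, SREBF2 and the 2 members of each role list with the smallest p for the human average; other pathways name up to 3 called genes with the largest human average. NPC2, its mouse counterpart, CYP27A1, MBTPS1, PDSS1, GRAMD1B, Cyp27a1, Mylip, Ch25h, Nes, MVK, FDPS, IDI1, CYP51A1, SC5D and the U118 and DBM2 values of genes named for U87M2 were added after their values were seen. The other marker lists (endothelial, adipocyte, and keratinocyte with sebaceous gland) had 3 of 7, 0 of 7 and 1 of 9 genes called in U87M2 cells, where 15% of all genes were called in either direction. In U87M2 tumours the endothelial list had 2 of 7 called and the keratinocyte list 1 of 10, where 3.72% of all genes were. Same-numbered arrays of a line did not deviate together (correlation of deviations across genes -0.52 to 0.32 in 14 human pairs, 3 above 0.1, and -0.35 to 0.30 in 13 mouse pairs, 3 above 0.1), so the numbers were not used to pair samples.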

Additional observations from a re-analysis of the deposited data

Results flagged for a closer look

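The following genes had a V-4084 effect that differed between the 5 lines, by limma's F test of the difference itself. The adjusted p was 0.00743 for ACAT2, 1.33e-06 for HMGCS1, 0.000445 for MVK, 0.00717 for MVD, 0.0138 for SQLE, 0.018 for CYP51A1, 0.000839 for MSMO1, 0.000692 for NSDHL, 0.000109 for DHCR7, 0.00381 for SREBF2, 0.000109 for INSIG1, 0.00049 for STARD4 and 0.047 for NPC2 on human arrays. In neighbouring pathways it was 0.0147 for SCD, 0.000195 for FADS1, 7.53e-05 for FADS2, 0.0147 for MID1IP1, 0.00347 for LPIN1, 0.00273 for ABCA1, 0.0294 for NCEH1 and 0.0303 for GRAMD1B. For all of these genes the U87M2 difference was called, and no member differed once U87M2 was left out.

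On mouse arrays the F test called Fads2 (adjusted p = 0.0182), Abca1 (adjusted p = 0.000152) and Ch25h (adjusted p = 6.25e-05). Fads2, a fatty acid desaturase, differed by -0.97 ± 0.13 (SE) in U87M2 tumours. Ch25h, which makes an oxysterol that blocks SREBP cleavage, differed by -1.20 ± 0.16 (SE) in U87M2 tumours and by 1.34 ± 0.18 (SE) in SF295 tumours, both called. Ch25h levels were 5.97, 5.95 and 6.04 with V-4084, against 6.87, 7.32 and 7.39 with vehicle in U87M2. In SF295 they were 9.65, 9.30 and 9.83 with V-4084, against 8.00 and 8.52 with vehicle. The treatments were separate in both lines, in opposite directions.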

How the results depend on the processing

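Counts of members called were recomputed under each alternative, and no called difference of a named gene changed sign. Without the U87M2 line the human average called 0 (17 with it) and the human test of differing effects called 0 (13 with it); the cause was not tested beyond the loss of that line's arrays. The mouse test of differing effects called 0 members as reported, 1 with the mean of a gene's probe sets and 3 after quantile normalization; the cause was not tested. Quantile normalization gave 14 for the human average (13 lower and 1 higher), 18 for U87M2 and 6 for U118. With the replicate number as a block, the human counts were 18 (average), 19 (U87M2), 7 (U118), 12 (differing effects) and 25 (vehicle levels) and the mouse counts 9 (U87M2) and 13 (vehicle levels), and no pairing was used. Leaving out each array in turn, the human counts ran from 14 to 19 for the average, 18 to 20 in U87M2, 0 to 8 in U118, 0 to 3 in SF295, 0 to 5 in DBM2, 0 to 0 in U251M2, 11 to 17 for differing effects and 23 to 25 for vehicle levels. The mouse counts ran from 1 to 10 in U87M2, 0 to 0 in the other 4 lines and in the average, 0 to 1 for differing effects and 13 to 15 for vehicle levels. Without the 3 narrow arrays 22 members were called in U87M2, 9 in U118 and 19 for differing effects. Leaving out 1 array of SF295 cells left a single array in its group, so the range for SF295 is not read as a result. Array weights, tried after seeing the data, did not converge and were not used. Members near background have compressed differences, and 4 human and 6 mouse members had mean levels below the median gene.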
